A study of Mus musculus with 7 samples.

Results

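The miR-200 family (miR-200a, miR-200b, miR-429, miR-200c and miR-141), miR-203 and miR-205 are the microRNAs (miRNAs) best known from epithelia. They were chosen by name, as the 7 main-strand assays among 517 mouse miRNA assays of a quantitative PCR panel, and all 7 were found. The label "epithelial" describes where these miRNAs are known from and not the samples, which were aorta and macrophages. The panel was run on 4 aortas and 3 macrophage cultures, all from female mice aged 6 to 8 weeks. The aortas were untreated controls, and their strain label is apoE-/- although the series title speaks of normal aortic tissue. The macrophages were grown for 7 days from femoral bone marrow of C57BL/6 mice in medium with L929-conditioned supplement, and carried to the M1 (inflammatory) state with LPS (100 ng/ml, 14 hours) and INF-g (10 ng/ml, 6 hours). Strain, tissue, culture and stimulation therefore cannot be told apart, and no unstimulated macrophages or epithelial samples were analysed here. The labels call the samples biological replicates without naming the animals behind them. The p-values therefore set group differences against the spread between these samples, which need not be the spread between animals.

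A miRNA is cut from a hairpin transcript and guides a silencing complex to messenger RNAs that pair with its seed, bases 2 to 8. The miR-200 family keeps epithelial cells epithelial, chiefly by silencing Zeb1 and Zeb2, the repressors of E-cadherin, and these repressors in turn shut down the family's own genes in mesenchymal cells. miR-203 drives keratinocytes out of division by silencing the stem cell factor p63, and has also been described in brown fat. miR-205 is abundant in basal epithelial cells of skin, breast and prostate, and it too silences the Zeb repressors.

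The sequences are shown to set out which members an assay could confuse and which share targets. They are RefSeq mature miRNAs, with the build GRCm38.p6 for positions. All 7 members matched. The file names no strand, so the unmarked name was taken as the 3p strand for every member but miR-205, taken as 5p. Capitals mark the seed.
miR-200a: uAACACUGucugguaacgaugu
miR-141: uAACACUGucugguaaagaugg
miR-200b: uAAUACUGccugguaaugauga
miR-200c: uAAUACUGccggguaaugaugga
miR-429: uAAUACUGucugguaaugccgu
miR-203: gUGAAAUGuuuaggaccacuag
miR-205: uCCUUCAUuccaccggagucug

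The family has 2 seeds that differ by 1 base. miR-200a and miR-141 share AACACUG, and miR-200b, miR-200c and miR-429 share AAUACUG. No other RefSeq mouse miRNA carries either seed. miR-200a and miR-141 differ at 2 of 22 bases, C17A and U22G counted from the 5′ end of miR-200a. miR-200b and miR-200c also differ at 2 of the 22 bases compared, U11G and A22G, and miR-200c has 1 further base. Seed sharing cuts across the genes. miR-200b, miR-200a and miR-429 lie within 1846 bases of chromosome 4 (chr4:156053905-156055750, minus strand), and miR-200c and miR-141 within 477 bases of chromosome 6 (chr6:124717914-124718390, minus strand). miR-203 (chr12:112130880-112130955, plus strand) and miR-205 (chr1:193507463-193507530, minus strand) stand alone. miR-203 matches the family members at 7 to 9 of 22 bases and miR-205 at 5 to 7. Assays for the near-identical pairs may pick up each other's target. That was not tested, and the primer sequences were not examined here.

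Each value is a cycle threshold (Ct), counted in PCR cycles, and an early (low) Ct means more target. Detection was set at Ct 35, and any later well entered at that limit. Levels are given as scaled levels in cycles: the Ct of the miRNA was subtracted from the average Ct of its sample, taken over the 296 miRNAs that every sample detected. A cycle is a doubling only at full PCR efficiency, which was not measured, and Ct values of different assays were not compared as amounts. The mean Ct was 22.62 to 24.70 in the aortas and 25.39 to 27.77 in the macrophage samples, with 416 to 454 and 326 to 366 miRNAs detected, so late wells were harder to see in the macrophages. Macrophage replicate 3 gave the least signal. As a check of the sample types, 6 of 6 smooth and striated muscle miRNAs were lower in macrophages and 4 of 4 leukocyte miRNAs were higher. The plant miRNA control, which has no mouse counterpart, crossed at Ct 27.94, 28.42 and 21.12 in aortas 1 to 3 and at 31.41 in macrophage replicate 3, and was at 40 in the other 3 samples. In aorta 3 it crossed 1.1 cycles before miR-200b, 1.3 before miR-429, 1.8 before miR-200c and 7.9 before miR-205, and after miR-200a and miR-203. Wells of miR-141, miR-205 and the star strands were later than the control in other samples too, and the part of non-specific signal in them was not tested.

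All 5 miR-200 family members were detected in every macrophage sample and none passed the test, while miR-203 fell 37.0-fold and miR-205 was detected in no macrophage sample. Of the 7 members, 2 were lower in macrophages, none was higher and 5 did not pass (limma, adjusted p under 0.05). The call of miR-205 rests on macrophage wells that were all set to the limit. Over all miRNAs tested 238 were called (55.5%, with 30.8% lower and 24.7% higher) and 191 were not, so the members were not called more often than the panel as a whole. Before adjustment limma also put miR-200c under 0.05, at 0.0454. That makes 3 members of 7, against 59.4% of all tested miRNAs. The scaled levels of the groups did not overlap for miR-203 alone among the members, against 58.7% of all tested. The members' median difference was 0.53 cycles, against -0.21 over all tested miRNAs. The differences of the 5 family members spanned -0.11 to 2.23 cycles, with intervals that reach 4.47 for miR-141. These statements use the scaling to the miRNA mean, and the direction of the family members depends on it, as given further on.

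**Figure D1:**
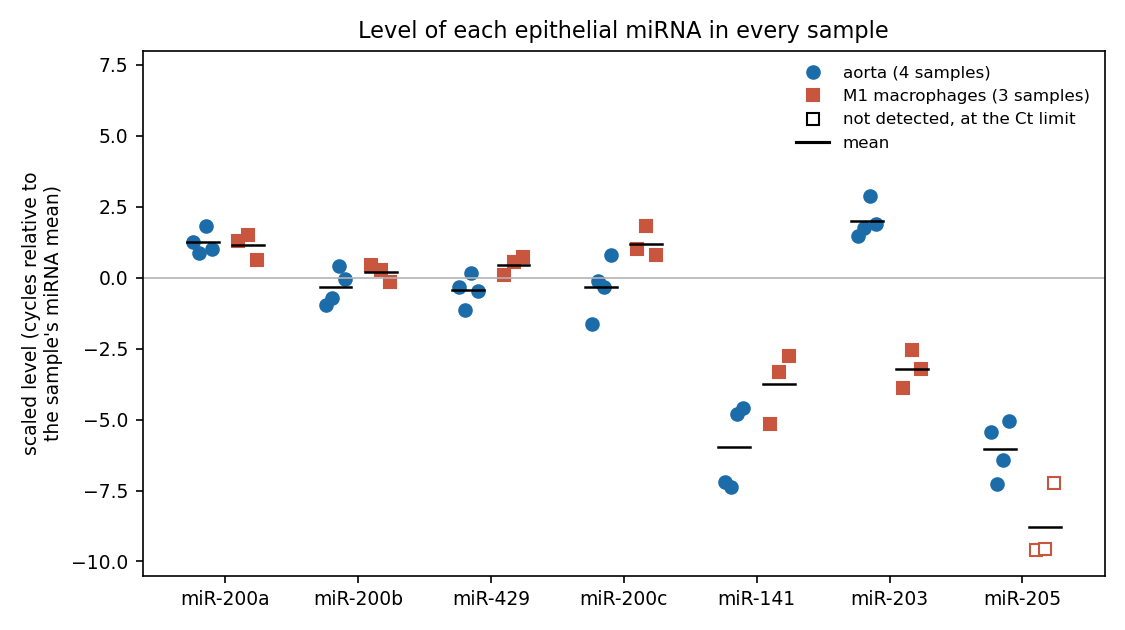
Scaled level (vertical axis, cycles relative to the sample's mean over 296 miRNAs) of the 7 members in each aorta (blue circles) and each macrophage sample (red squares), with group means as bars and undetected wells as open symbols at the Ct limit. The groups overlapped for each of the 5 miR-200 family members, whereas the macrophage samples lay at -3.87 to -2.53 for miR-203, all below the aortas at 1.48 to 2.88.

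miR-203, the keratinocyte miRNA, crossed at Ct 22.01, 22.93, 19.74 and 21.55 in aortas 1 to 4 and at 29.26, 27.98 and 30.99 in macrophages 1 to 3. Each macrophage sample crossed later than the latest aorta. The scaled level averaged 2.00 over the aortas and -3.21 over the macrophage samples, with SDs of 0.61 and 0.67, and for 31.5% of all tested miRNAs the macrophages likewise lay below every aorta. The difference was -5.21 ± 0.52 SE (limma, adjusted p = 0.000167), a 37.0-fold lower level. Among the tested miRNAs 60 had a lower difference, so miR-203 lay well down the distribution but not at its end. It kept its direction and its call under each of the 20 alternatives tried, with differences from -7.85 to -4.51 and adjusted p from 1.26e-05 to 0.00405.

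miR-205, the basal epithelial miRNA, crossed in every aorta, at Ct 28.94, 31.98, 29.03 and 28.47, and in no macrophage sample. It belonged to 48 miRNAs, 9.28% of the panel, that showed this detection pattern. With macrophage wells at the limit the scaled difference was -2.75 ± 0.80 SE (limma, adjusted p = 0.0216), a level at least 6.74-fold lower. Every macrophage value in that test is the limit, and miR-205 entered the test through the aortas alone. The SE and p therefore do not measure how miR-205 varies between macrophage samples. The limit stood at scaled levels of -9.61, -9.55 and -7.23 in the macrophage samples, against aorta levels of -5.45, -7.27, -6.41 and -5.04. In macrophage replicate 3 the limit thus lay above the lowest aorta. Leaving out macrophage replicate 3 gave -3.44, and leaving out replicate 1 or 2 gave -2.35, which did not pass (limma, adjusted p = 0.0753 and 0.0803). At a limit of Ct 32 it was -0.04 (adjusted p = 0.964), and with wells kept at their own Ct it was -7.75. The plant control crossed earlier than miR-205 in each of aortas 1 to 3 and not in aorta 4.

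**Figure D2:**
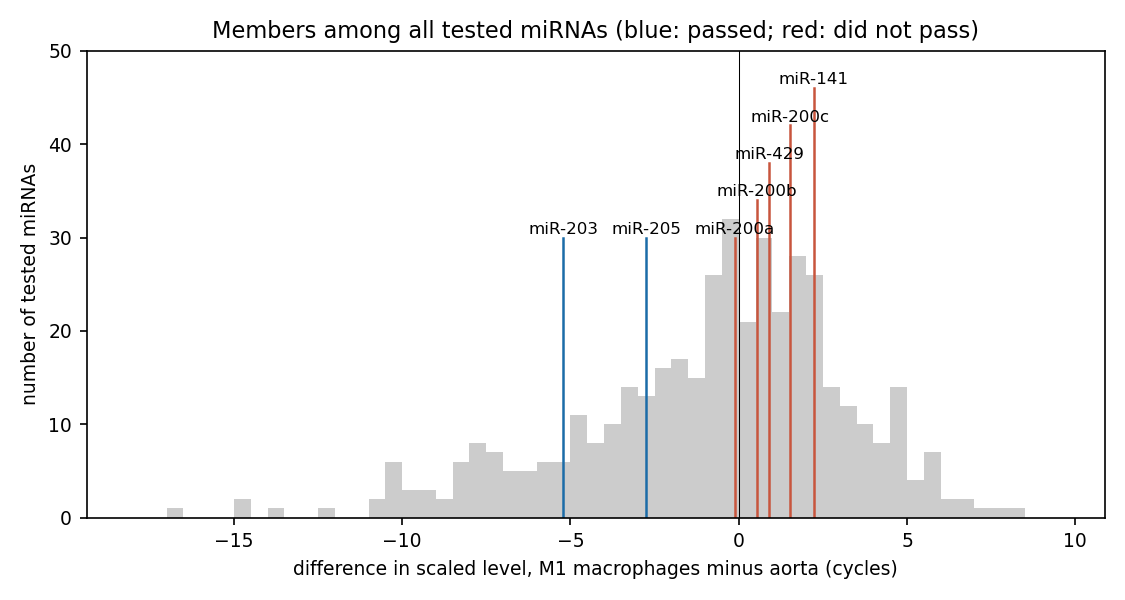
Histogram of the difference in scaled level (horizontal axis, cycles, macrophages minus aorta) over all tested miRNAs, with vertical lines at the 7 members, blue where the member passed and red where it did not; line heights only separate the labels. The 5 miR-200 family members lie right of the median, from miR-200a, with 223 tested miRNAs lower and 205 higher, to miR-141, with 338 lower and 90 higher. miR-203 and miR-205 lie to the left, with 60 and 114 tested miRNAs lower still.

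The chromosome 4 cluster, known to be a single transcript, was detected in every sample. Within each group the scaled levels of its members spanned a smaller range than those of either chromosome 6 member. miR-200a crossed at Ct 22.22, 23.85, 20.79 and 22.42 in the aortas and at 24.11, 23.93 and 27.16 in the macrophages. Scaled, it stood at 1.24 and 1.14, a difference of -0.11 ± 0.43 SE (limma, adjusted p = 0.838, 95% interval -1.12 to 0.91). As folds the interval runs from 0.459 to 1.88, so a change within it is not excluded.

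miR-200b crossed at Ct 24.46, 25.41, 22.20 and 23.48 in aortas and at 24.93, 25.16 and 27.91 in macrophages, a scaled difference of 0.53 ± 0.47 SE (limma, adjusted p = 0.378, interval -0.57 to 1.63). miR-429, the remaining hairpin of that transcript, crossed at 23.81, 25.86, 22.46 and 23.90 and at 25.30, 24.89 and 27.02, a difference of 0.91 ± 0.44 SE (limma, adjusted p = 0.123, interval -0.13 to 1.95). For both, the scaled levels of the groups overlapped. Within aorta the scaled levels spread over 0.98 cycles for miR-200a, 1.39 for miR-200b and 1.32 for miR-429.

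The chromosome 6 pair showed larger differences with wider errors. miR-200c crossed at Ct 25.11, 24.80, 22.94 and 22.63 in aortas and at 24.37, 23.64 and 26.97 in macrophages. Its scaled levels were -1.62, -0.10, -0.32 and 0.80 against 1.02, 1.81 and 0.79, so the groups met only at the highest aorta and the lowest macrophage sample. The difference of 1.52 ± 0.63 SE missed the threshold (limma, adjusted p = 0.0775, interval 0.04 to 3.00). Without aorta replicate 4, the highest aorta, it was 1.88 and passed (adjusted p = 0.0302).

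miR-141, transcribed with miR-200c, was the latest family member in Ct, at 30.68, 32.08, 27.42 and 28.01 in aortas and 30.56, 28.77 and 30.54 in macrophages. The aortas fell into 2 pairs, replicates 1 and 2 at scaled levels of -7.19 and -7.37 and replicates 3 and 4 at -4.79 and -4.58. The difference of 2.23 ± 0.95 SE missed the threshold (limma, adjusted p = 0.0844, interval -0.0049 to 4.47), and passed without aorta replicate 4 at 2.69 (adjusted p = 0.0455). In aorta 3 the plant control crossed 6.3 cycles before miR-141.

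The direction of the family depended on what the samples were scaled to. Relative to the miRNA mean the differences centred above 0, and with quantile normalization, which shifted the median of all tested miRNAs by 0.61, miR-429, miR-200c and miR-141 passed as higher (1.37, 2.18 and 3.71). With snoRNA135 and snoRNA202 as the reference, which shifted that median by -2.24, miR-200a, miR-200b and miR-429 passed as lower (-2.35, -1.71 and -1.33), and miR-200c and miR-141 were at -0.72 and -0.01. On the main scale snoRNA135 itself averaged 1.96 in the aortas (SD 0.55) and 5.11 in the macrophage samples (SD 0.07). Its partner snoRNA202 averaged 7.42 and 8.75 (SD 0.12 in each group). The mouse controls MammU6 (9.79 and 10.45), U87 (1.15 and 2.94) and Y1 (0.32 and 2.98) were also higher in macrophages on that scale. Only snoRNA429 was not, at 7.03 and 6.98. Which reference is the right one was not tested. With MammU6, with snoRNA429, with the authors' deposited values and without scaling, no family member passed. Subtracting a constant per sample cannot change the order of the members, and quantile normalization left it as it was. In the deposited values, which keep late wells, miR-205 lay below miR-203.

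**Figure D3:**
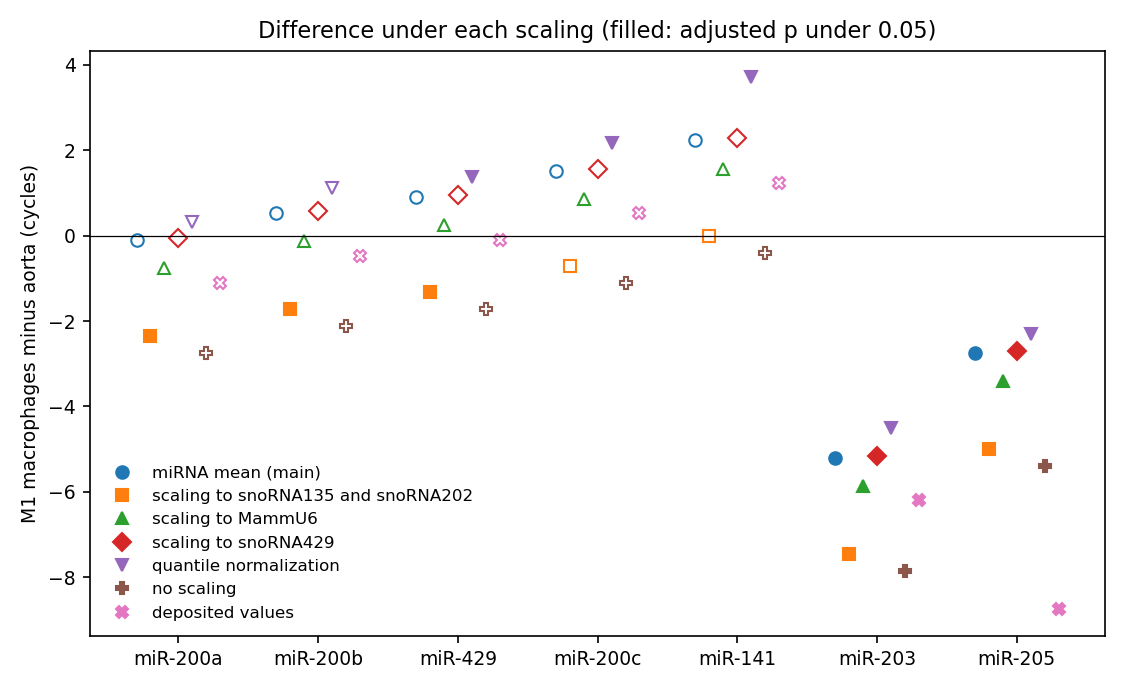
Difference between macrophages and aorta (vertical axis, cycles) for each member under the main scaling and 6 others (marker shapes), filled where the adjusted p was under 0.05. miR-203 and miR-205 lie below 0 and are filled in every one, whereas the family members cross 0, from -2.75 for miR-200a without scaling to 3.71 for miR-141 with quantile normalization. No macrophage sample detected miR-205, so its points depend on the value entered for those wells.

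Ratios of members within a sample need no scaling. Set against the mean Ct of the 5 family members in the same sample, a measure chosen after the values were seen and given without a test, the log2 ratio of miR-203 to the family was 3.24, 3.47, 3.42 and 2.54 in aortas and -3.41, -2.71 and -3.07 in macrophages. miR-203 thus crossed before the family mean in every aorta and after it in every macrophage sample. The shift was -6.23 cycles, or 74.9-fold, with SDs of 0.43 and 0.35. For miR-205 the same measure averaged -4.88 over the aortas (SD 1.02) and at most -8.65 over the macrophage samples, a difference of at most -3.77. The macrophage SD of 1.39 is that of the family mean against the fixed limit, not a spread of miR-205.

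Within the family the ratios moved far less. For 8 pairs of members the difference of their Ct was compared between the groups with a 2-sided exact permutation test, which with 4 against 3 samples cannot go below p = 0.0571. The pair miR-200a and miR-429, of the same transcript, reached that floor. The log2 ratio of miR-200a to miR-429 was 1.59, 2.01, 1.67 and 1.48 in aortas and 1.18, 0.96 and -0.13 in macrophages, without overlap, a shift of -1.02 (exact permutation p = 0.0571, adjusted over the 8 pairs 0.274). The other pairs of that cluster, miR-200a with miR-200b and miR-200b with miR-429, shifted by -0.64 and -0.38, with overlap.

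The 2 members of the chromosome 6 unit shifted by -0.71 against each other (miR-200c to miR-141, exact permutation p = 0.457), within aorta and macrophage SDs of 1.17 and 1.32. Pairs that share a seed but not a gene shifted by -0.99 (miR-200b to miR-200c), -0.61 (miR-429 to miR-200c) and -2.34 (miR-200a to miR-141, exact permutation p = 0.114), each with overlapping groups. No pair passed after adjustment (0.274 to 0.514). The ratio of miR-203 to miR-205 has no direction here, because miR-205 in macrophages is only bounded. It shifted by -2.46 with the limit at Ct 35 and by 2.54 with wells kept at their own Ct.

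**Figure D4:**
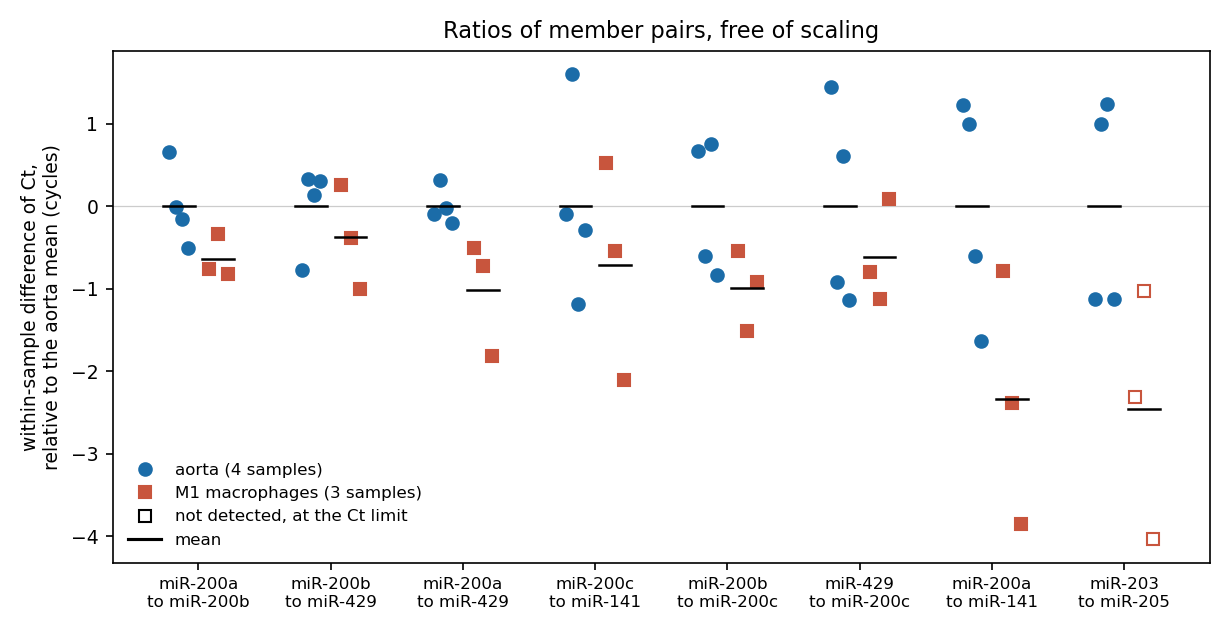
Difference in Ct between the members of 8 pairs within each sample (vertical axis, cycles, set to 0 at the aorta mean of each pair), for aortas (blue circles) and macrophage samples (red squares), with group means as bars; open symbols are lower bounds, since miR-205 was not detected. Only miR-200a to miR-429 separated the groups, by 1.02 cycles, and the pairs with miR-141 or miR-205 spread most.

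The other strand of 4 family hairpins was also on the panel, under a name with a star, and star strands of miR-203, miR-205 and miR-429 were not analysed here. The hairpins of the chromosome 6 unit are shown because their star strands gave differences of opposite sign, 4.81 for miR-141*, which passed, and -1.91 for miR-200c*, which did not. Capitals mark the 2 mature strands, the star strand first.
miR-200c hairpin, 69 bases at chr6:124718322-124718390, minus strand: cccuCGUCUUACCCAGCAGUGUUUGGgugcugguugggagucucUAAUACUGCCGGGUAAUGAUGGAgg
miR-141 hairpin, 72 bases at chr6:124717914-124717985, minus strand: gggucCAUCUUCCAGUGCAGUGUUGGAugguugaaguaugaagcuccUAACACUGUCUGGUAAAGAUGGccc

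miR-141* crossed at Ct 26.75, 28.54, 31.08 and 27.00 in aortas and at 26.07, 26.03 and 26.42 in macrophages, earlier than in any aorta even before scaling. Its Ct spanned only 0.39 cycles over the macrophage samples, while their mean Ct spanned 2.37, so it did not follow their overall signal. Its scaled level was highest, at 1.34, in replicate 3, which gave the least signal. The scaled level was higher in macrophages by 4.81 ± 1.33 SE (limma, adjusted p = 0.0177), 28.0-fold. Of all tested miRNAs 24.7% were called higher and 27.3% lay above every aorta in each macrophage sample. The interval of 1.68 to 7.94 was wide, and aorta replicate 3 stood apart at a scaled level of -8.45. Leaving it out gave 3.59 (limma, adjusted p = 0.00421), and leaving out macrophage replicate 3 gave 4.25, which did not pass (adjusted p = 0.0602). It also missed the threshold with the deposited values (3.82, adjusted p = 0.0724), without scaling (2.17, adjusted p = 0.127) and with the snoRNA pair as reference (2.57, adjusted p = 0.146).

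miR-200c*, from the neighbouring hairpin, crossed at Ct 29.13, 33.69, 29.32 and 29.66 in aortas and in no macrophage sample. With the limit in place the difference was -1.91 ± 0.96 SE and did not pass (limma, adjusted p = 0.130). It passed as lower under 7 of the 19 alternatives that could test it. These were wells kept at their own Ct (-6.91, limma adjusted p = 0.00109), the deposited values (-7.90), a limit of Ct 38 (-4.79), no scaling (-4.55), the snoRNA pair (-4.15), quantile normalization (-1.73) and leaving out aorta replicate 2 (-2.63, adjusted p = 0.0252). At a limit of Ct 32 it was 0.38. In all these fits the macrophage values were the limit or uncrossed wells. The calls thus depend on the value entered and do not measure miR-200c* in macrophages. Within a sample miR-141* lay 2.38, 5.15, -1.76 and 2.66 cycles ahead of miR-200c* in aortas, and at least 8.93, 8.97 and 8.58 cycles ahead in macrophages. That comparison was chosen after the values were seen and has no test.

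The star strands of the chromosome 4 cluster did not pass. miR-200a* was detected in 2 macrophage samples, at Ct 28.64 and 29.17, and not in replicate 3, a difference of -1.13 ± 0.97 SE (limma, adjusted p = 0.367) that became 0.22 without that replicate. miR-200b* was likewise not detected in macrophage replicate 3, at -0.70 ± 1.25 SE (limma, adjusted p = 0.658).

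**Figure D5:**
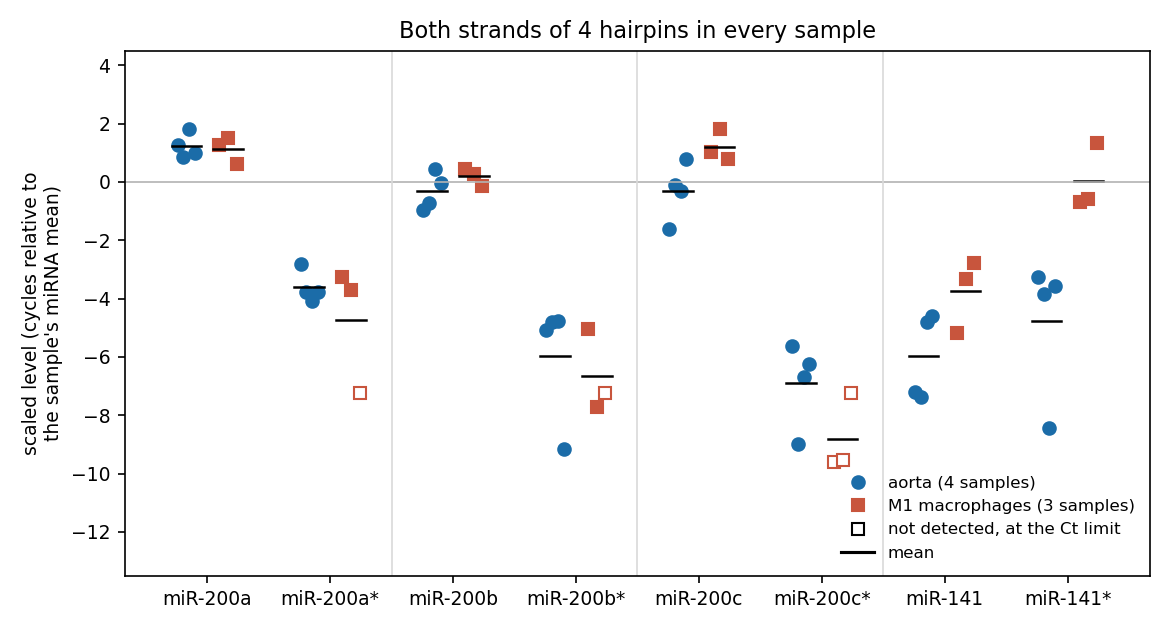
Scaled level (vertical axis, cycles) of the main and star strands of 4 miR-200 family hairpins in aortas (blue circles) and macrophage samples (red squares), with group means as bars and open symbols for undetected wells at the Ct limit. miR-141* is at -0.67 to 1.34 in macrophages, above every aorta, while miR-200c* has no detected macrophage well.

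Other miRNAs known from epithelia were read from a list of 13, of which 12 were on the panel and tested. Of these 4 were lower, none higher and 8 did not pass, a share near the 30.8% lower over all tested miRNAs, with a median of -0.55 against -0.21 over all tested miRNAs. miR-31, abundant in keratinocytes and other squamous epithelia and also in mesenchymal cells, crossed at Ct 19.81, 20.91, 18.98 and 19.60 in aortas and at 27.61, 30.54 and 31.97 in macrophages. It fell 190.3-fold, a difference of -7.57 ± 0.68 SE on the log2 scale (limma, adjusted p = 0.000101). That was larger than the fall of miR-203, and it was -8.38 and -6.92 without macrophage replicates 1 and 2.

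The gut and liver miRNAs miR-215, miR-194 and miR-192 differed by -2.60, -1.76 and -1.58 (limma, adjusted p = 0.0317, 0.00606 and 0.0160). miR-194 passed under each of the 20 alternatives, miR-192 under 17 and miR-215 under 12. Without macrophage replicate 1 miR-215 was at -1.83 (adjusted p = 0.0951) and miR-192 at -1.38 (adjusted p = 0.0581). The miR-183, miR-96 and miR-182 cluster of sensory epithelia did not pass, with differences of 0.07, 0.80 and -0.54.

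Markers of other cells moved with miR-203, miR-205 and miR-31. In bulk RNA, fewer cells of a type and less RNA per cell cannot be told apart. All 4 listed fat miRNAs were lower in macrophages, against 30.8% of all tested miRNAs. Their mean levels were 3.90 to 5.08 in aortas and -3.38 to -1.48 in macrophages. The 6 muscle miRNAs had means of 5.84 to 6.03 and -5.98 to -4.39, with miR-133a and miR-133b detected in no macrophage sample. Both endothelial miRNAs, the strands of miR-126, had means of 6.90 to 7.45 and -4.37 to -2.68. The 4 leukocyte miRNAs went the other way, with means of 0.61 to 1.16 and 5.55 to 6.26. Signals of blood and of other tissue were also lower in macrophages: the red blood cell miRNAs miR-451 and miR-486 differed by -10.39 and at most -5.80, and the liver miRNA miR-122 by at most -7.12, with miR-486 and miR-122 detected in no macrophage sample. Of 3 lymphocyte miRNAs miR-150 was lower (-6.67), miR-181a 2.82-fold higher and miR-181c did not pass (-0.18). The part of these cell types in the differences of miR-203, miR-205 and miR-31 was not tested.

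The miRNAs with the most similar profiles were found for the 6 members detected in all 7 samples, by the root mean square difference of scaled levels over the samples, each miRNA set to its own mean. This is a description of 7 samples in 2 groups. Nearest to miR-203 were miR-1, a muscle miRNA, at 0.55 cycles and miR-140, known from cartilage, at 0.72, against a median of 3.02 over the other 295 miRNAs. Nearest to miR-200a were miR-93* at 0.32 and miR-29a at 0.37, with its cluster partner miR-200b in place 10 of 295 at 0.47 and miR-429 in place 24.

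miR-200b had let-7b and miR-190b at 0.47, then miR-200a, with miR-429 in place 9. miR-429 was nearest to miR-15a* at 0.40 and miR-219 at 0.45, and miR-200b was in place 8. miR-200c was nearest to miR-25 at 0.29 and miR-297c at 0.37, with its partner miR-141 only in place 105, at 1.10. miR-141 was nearest to miR-467b* at 0.66 and miR-32 at 0.70, and miR-200c was in place 25. In cycles the chromosome 4 members thus stood closer to each other (0.47 to 0.65) than the chromosome 6 pair did (1.10). By place this did not always hold, since miR-200a was in place 29 for miR-429. The late miR-141 also lay farther from miRNAs in general, with a median of 1.85 against 1.27 for miR-200a. miR-200c stood nearer to miR-200b (0.78) and miR-429 (0.93) than to miR-141.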

How the data were processed

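Total RNA of 4 aortas and 3 macrophage cultures was isolated with the mirVana kit, per the labels' protocols. The authors deposited a table of raw Ct values (a score in cycles, lower for more target, 40 where a well did not cross) for 524 assays, 7 of them controls, and a second table on the log2 scale, each Ct minus a constant per sample; both readings come from the values. Its constants equalled the sample's mean Ct over MammU6 and snoRNA202. The PCR instrument and its threshold setting are not stated in the labels.

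Wells of 1 assay were averaged. A miRNA was tested if 3 or more samples of a group detected it (in both, where 2 were left in a group). Groups were compared with limma 3.58.1 in R 4.3.3 (lmFit and eBayes, 2-sided, group as the only term). Benjamini-Hochberg adjustment ran over all miRNAs tested, with a threshold of 0.05. The test was tried on simulated data, with effects larger than those of the miR-200 family and no shift in Ct between whole samples. Tables, permutation tests and plots used scipy 1.17.1, matplotlib 3.10.9, pandas 2.3.3 and numpy 2.4.6 under Python 3.11.15. For arrays of assays there is no read depth; mean Ct and detected miRNAs stand in for it, and 7 samples limit the precision. Alternatives were other scalings, limits, filters, left-out samples and a replicate block. Members, lists and tests were chosen with earlier results of these data known. The text names all members, up to 4 miRNAs of each further list by the size of the difference, and the 2 closest profiles per member; the miR-183, miR-96 and miR-182 values were added after they were seen.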

Additional observations from a re-analysis of the deposited data

Results flagged for a closer look

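Of 23 values tried, 3 stood apart within the 4 aortas, with a gap to the nearest sample, over the range, above the 95% critical value of Dixon's test; chance alone gives about 1 in 20. miR-200b* was at a scaled level of -9.17 in aorta replicate 4, against -5.09 to -4.78 in the other aortas. miR-141* was at -8.45 in aorta replicate 3, against -3.83 to -3.26. The log2 ratio of miR-200b to miR-429 was -0.65 in aorta replicate 1, against 0.26 to 0.45. Groups of 3 macrophage samples were not tested in this way.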

How the results depend on the processing

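The total of 238 miRNAs called ranged from 176 to 268 over the 20 alternatives, all within 1.5 times, but the split into lower and higher moved with the scaling. It was 132 and 106 in the report, 231 and 32 with snoRNA135 and snoRNA202, 124 and 52 with MammU6, 118 and 147 with quantile normalization, 207 and 10 without scaling, 155 and 53 in the deposited values, 129 and 139 without a filter, and 76 and 102 over miRNAs detected in all samples. The median of all tested miRNAs shifted by -2.24 with the snoRNA pair, -0.66 with MammU6, 0.05 with snoRNA429, 0.61 with quantile normalization, -2.64 without scaling and -1.20 in the deposited values. miR-203, miR-31 and miR-194 kept direction and call in all 20. For the changes below the cause was not tested.

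With the snoRNA pair, 5 members and 8 related epithelial miRNAs were lower; miR-200a was at -2.35, miR-200b at -1.71, miR-429 at -1.33, miR-200c at -0.72, miR-141 at -0.01, miR-200a* at -3.37, miR-200c* at -4.15 and miR-141* at 2.57. With MammU6, 2 related miRNAs were lower, and miR-200b was at -0.13, miR-215 at -3.25 and miR-192 at -2.24. With quantile normalization 3 members and 1 related miRNA were higher; miR-200a was at 0.31, miR-429 at 1.37, miR-200c at 2.18, miR-141 at 3.71, miR-200b* at 0.19, miR-200c* at -1.73 and miR-215 at -0.38. Without scaling 7 related miRNAs were lower; miR-200b was at -2.11, miR-429 at -1.73, miR-200c at -1.12, miR-141 at -0.41, miR-200c* at -4.55 and miR-141* at 2.17. In the deposited values miR-200b was at -0.47, miR-429 at -0.09, miR-200c* at -7.90 and miR-141* at 3.82.

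With a limit of Ct 38 miR-200a was at 0.01, miR-200c* at -4.79 and the ratio of miR-203 to miR-205 at 0.54. With wells kept at their own Ct miR-200c* was at -6.91 and that ratio at 2.54. With a limit of Ct 32, 1 member was lower, with miR-205 at -0.04, miR-200b* at 0.24, miR-200c* at 0.38 and miR-215 at -1.50. Over miRNAs detected in all samples 1 member was lower, and miR-205 could not be tested.

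With the replicate number as a block 1 member was lower and 1 higher (121 and 91 of all miRNAs); miR-141 was at 2.70 (limma, adjusted p = 0.0293), miR-205 at -2.42 (0.0644), miR-141* at 5.21 (0.0511) and miR-215 at -2.97. Samples of the same number correlated at 0.110, 0.008 and -0.074, and not every sample correlated best with its own number. The labels do not say that the numbers pair the samples. Correlations between materials as unlike as aorta and cultured macrophages cannot decide it.

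Leaving out 1 sample at a time gave 1 to 2 members lower (1 without macrophage replicate 1 or 2) and 0 to 2 higher (2, miR-200c and miR-141, without aorta replicate 4), and 2 to 5 related miRNAs lower. The differences ran from -0.27 to 0.25 for miR-200a, 0.31 to 0.80 for miR-200b, 0.65 to 1.11 for miR-429, 1.08 to 1.88 for miR-200c, 1.75 to 2.94 for miR-141, -5.52 to -4.88 for miR-203, -3.44 to -2.35 for miR-205, -1.87 to 0.22 for miR-200a*, -2.63 to -1.49 for miR-200c* and 3.59 to 5.32 for miR-141*. Without aorta 3 and macrophage 3 together, chosen after seeing the data, miR-200a was at 0.45, miR-200a* at 0.06 and miR-200b* at 0.08, and miR-215 (-2.65) and miR-192 (-1.39) did not pass. Late wells limit miR-141, miR-205 and the star strands, except miR-141* in macrophages, which crossed at Ct 26.03 to 26.42.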

Other observations

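miR-141* showed almost the same Ct in the 3 macrophage samples, although these differed in overall signal. Its Ct spanned 0.39 cycles, while the mean Ct over 296 miRNAs spanned 2.37 cycles between the same samples, the median span of a single miRNA was 2.71 and that of miR-203 was 3.00. The 5 main strands of the miR-200 family spanned 1.79 to 3.34 cycles. Of the 296 miRNAs detected in all samples, miR-141* alone had a span this small.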
